A study of Homo sapiens with 8 samples.

Results

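The genes described here encode the ETO-family corepressors and the corepressor machinery that they bind. There are 8 of them, out of 20163 protein-coding genes annotated on chromosomes 1 to 22, X and Y. They are the ETO genes RUNX1T1, CBFA2T2 and CBFA2T3, the scaffold genes NCOR1 and SIN3A, and the histone deacetylase genes HDAC1, HDAC2 and HDAC3. A peak was counted for a gene when its summit, the point of highest signal, lay in the hg19 gene body or within 20 kb of it. By this rule the genes held 233 of 235023 peaks in 4 lists.

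The lists come from chromatin immunoprecipitation and sequencing (ChIP-seq) in U937, a human monocytic leukemia cell line. In one stable line the cells carried a doxycycline-inducible, HA-tagged AML1-ETO, and in the other an HA-tagged ETO2-GLIS2. Both lines received doxycycline at 5 µg/ml for 12 or 48 h, and anti-HA beads pulled down the fusion protein with its DNA. Peak lists were used for the 4 ChIP samples, and the other 4 of the 8 libraries are inputs. The study's methods name 1 single-cell clone of each line for these experiments. The labels list no ChIP from uninduced or empty-vector cells. With 1 library for each fusion protein and time, no test between conditions was possible, and all values are descriptions of these libraries. Peak lists hold no expression values, so the monocytic label could not be checked against marker genes.

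ETO proteins do not bind DNA sequence-specifically. DNA-binding factors such as the E proteins bring them to chromatin, where they recruit NCOR1, SIN3A and histone deacetylases, which remove acetyl groups from histones and favour repression. NCOR1 carries HDAC3 and is needed for its activity, and SIN3A is the platform for HDAC1 and HDAC2. In leukemia, chromosomal rearrangements give ETO proteins a DNA-binding domain. In AML1-ETO it is the Runt domain of RUNX1, fused to most of RUNX1T1 (ETO). In ETO2-GLIS2 it is the zinc finger region of GLIS2, fused to part of CBFA2T3 (ETO2). RUNX1T1 and CBFA2T3 are therefore both genes in the genome of the cells and parts of the introduced constructs.

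Sequences at 5 peaks are shown because the main results below turn on them. They are GRCh37 reference sequence, read on the strand of the gene. The first 4 are windows of 200 bases around an ETO2-GLIS2 summit at 48 h, and capitals mark matches to the patterns searched on both strands. These patterns were TGTGGT and TGCGGT (Runt), TGGGGGG (core of the GLIS site), CCGGAAGT (ETS), CAGCTG (E-box) and TGACTCA (AP-1). The windows are the strongest site upstream of CBFA2T3 (chr16:89045193-89045392, minus strand), the strongest site in a CBFA2T3 intron (chr16:89003160-89003359, minus strand), the HDAC1 promoter (chr1:32757433-32757632, plus strand) and the start region of SIN3A (chr15:75746604-75746803, minus strand). The last sequence is a whole ETO2-GLIS2 peak of 249 bases at CBFA2T3 exon 4 (chr16:88958650-88958898, minus strand), in which capitals mark the coding exon.
CBFA2T3 upstream site: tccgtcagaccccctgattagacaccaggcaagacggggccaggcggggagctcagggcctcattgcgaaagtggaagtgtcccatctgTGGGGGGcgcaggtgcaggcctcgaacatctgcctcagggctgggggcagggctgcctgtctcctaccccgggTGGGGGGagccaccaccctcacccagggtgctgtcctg
CBFA2T3 intron site: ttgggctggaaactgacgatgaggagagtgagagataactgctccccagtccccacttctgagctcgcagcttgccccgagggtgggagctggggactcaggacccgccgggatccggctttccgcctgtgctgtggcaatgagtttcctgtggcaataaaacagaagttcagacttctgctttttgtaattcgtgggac
HDAC1 promoter: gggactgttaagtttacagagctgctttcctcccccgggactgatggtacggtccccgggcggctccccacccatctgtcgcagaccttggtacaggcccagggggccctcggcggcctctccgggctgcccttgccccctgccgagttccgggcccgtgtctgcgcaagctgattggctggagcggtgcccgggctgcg
SIN3A start region: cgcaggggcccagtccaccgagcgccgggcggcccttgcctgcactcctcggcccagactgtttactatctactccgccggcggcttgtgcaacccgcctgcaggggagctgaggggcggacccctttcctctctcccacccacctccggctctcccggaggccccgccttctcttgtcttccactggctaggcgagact
CBFA2T3 exon peak: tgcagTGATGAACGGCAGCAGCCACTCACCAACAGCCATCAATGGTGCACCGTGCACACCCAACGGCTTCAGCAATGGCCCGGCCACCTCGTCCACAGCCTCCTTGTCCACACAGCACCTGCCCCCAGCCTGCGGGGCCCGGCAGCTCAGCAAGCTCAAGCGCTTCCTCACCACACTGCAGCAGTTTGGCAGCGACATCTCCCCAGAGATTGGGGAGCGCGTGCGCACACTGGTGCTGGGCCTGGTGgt

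The CBFA2T3 upstream window held TGGGGGG at 2 places, not overlapping each other or another match. Of all 30096 ETO2-GLIS2 windows of this length at 48 h, 7.89% held this pattern at least once. Of the 105769 AML1-ETO windows, 3.83% did. None of the 6 patterns was found in the CBFA2T3 intron, HDAC1 or SIN3A windows. Among the windows not printed, those at the strongest 48 h summits of NCOR1 and HDAC3, both of AML1-ETO, held TGGGGGG once each, and the NCOR1 window held TGACTCA once. The RUNX1T1 window, also of AML1-ETO, held TGTGGT and CAGCTG once each, and the printed ETO2-GLIS2 exon peak held TGTGGT once. None of the 6 patterns was found in the CBFA2T2 and HDAC2 windows, also of AML1-ETO, whose GC contents were 80 and 61%. The GC contents of the intron, HDAC1 and SIN3A windows were 56, 69.5 and 69%, and that of the CBFA2T3 upstream window was 67.5%. The mean over all ETO2-GLIS2 summits at 48 h was 58.7%. The NCOR1 and HDAC3 windows had 73.5% each, and the mean over all AML1-ETO summits at 48 h was 52.0%. The shares of windows with a pattern were not adjusted for GC content.

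The number of peaks differed more between the genes than between the lists. AML1-ETO had 58 peaks at the 8 genes at 12 h and 99 at 48 h, and ETO2-GLIS2 had 30 and 46. Of the 8 genes, 7 had a peak in each of the AML1-ETO 12 h, ETO2-GLIS2 12 h and ETO2-GLIS2 48 h lists, and all 8 had one in the AML1-ETO 48 h list. Among all protein-coding genes these shares were 77.6, 66.4, 66 and 80.3%, so most genes of any kind had a peak by this rule. Per 100 kb of window, the genes held 5.08 peaks of AML1-ETO at 12 h and 8.67 at 48 h, compared with 4.65 and 7.03 over the windows of all protein-coding genes. For ETO2-GLIS2 the values were 2.63 and 4.03, compared with 2.097 and 2.36. CBFA2T3 weighed heavily in these values. Without it, the other 7 genes held 4.40 and 5.70 peaks of AML1-ETO per 100 kb, below the values of all genes, and 2.30 and 2.80 peaks of ETO2-GLIS2.

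**Figure D1:**
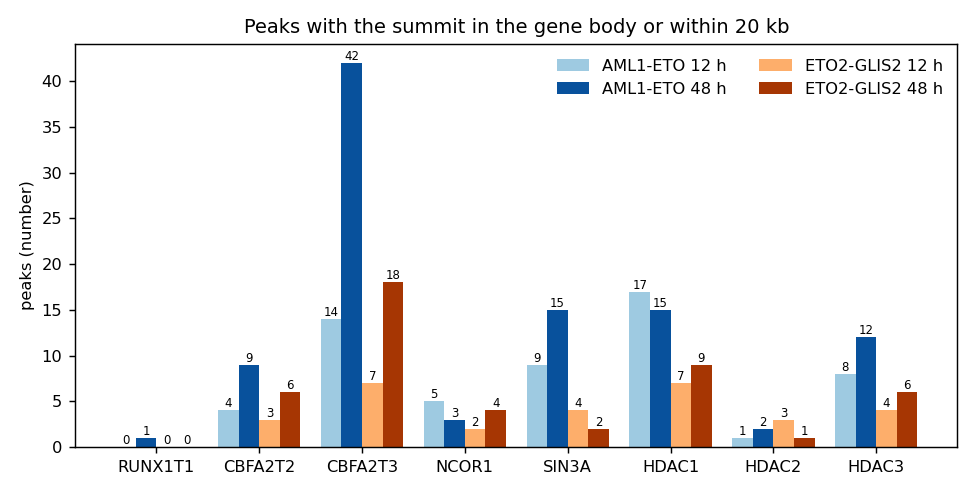
Bars give the number of peaks (vertical axis) in the window of each gene (horizontal axis), 1 bar per ChIP library. CBFA2T3 had the tallest bars at 48 h, with 42 AML1-ETO and 18 ETO2-GLIS2 peaks. At 12 h HDAC1 had 17 AML1-ETO peaks and CBFA2T3 had 14, and each had 7 ETO2-GLIS2 peaks. RUNX1T1 had 1 peak in all lists together.

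The lists differ in length, and this bears on the counts. Each list gives for every peak its fold enrichment over the local background, and ranks are places in that list by the q-value, with rank 1 the strongest. They hold 70833 and 105769 AML1-ETO peaks and 28325 and 30096 ETO2-GLIS2 peaks. When each list was limited to its strongest 28325 peaks, the genes held 26 and 29 AML1-ETO peaks at 12 and 48 h, and 30 and 44 ETO2-GLIS2 peaks. The higher AML1-ETO counts thus turned into lower ones under this rule. Its cut fell at a −log10 q of 6.17 and 8.75 in the AML1-ETO lists and of 1.31 and 2.03 in those of ETO2-GLIS2. At a common −log10 q of at least 5, AML1-ETO kept the higher counts, with 29 and 43 peaks against 21 and 27. A window can also reach into a neighbouring gene. The nearest start site of a protein-coding gene belonged to another gene for 35 of 58 and 47 of 99 AML1-ETO peaks and for 15 of 30 and 26 of 46 ETO2-GLIS2 peaks. At the border of the window, the peaks closest to the limit lay at HDAC1, 19988 bp (AML1-ETO, 12 h, 3.58-fold) and 20009 bp (ETO2-GLIS2, 48 h, 5.15-fold) from the gene body.

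Promoters were examined next, taking 1 kb to either side of any annotated start site of the gene. In each of the 4 lists, 6 of the 8 genes had a summit there, although not always the same ones. Over all protein-coding genes, 54% had a promoter peak for AML1-ETO and 42.8% for ETO2-GLIS2 at 12 h, and 59.8 and 45.7% at 48 h. CBFA2T3, NCOR1, SIN3A, HDAC1 and HDAC2 had a promoter peak in all 4 lists, which 35.8% of protein-coding genes did. These 5 genes had a promoter peak of both fusion proteins at each time, compared with 39.9% of protein-coding genes at 12 h and 43.8% at 48 h. CBFA2T2 had one only in the AML1-ETO lists and HDAC3 only in the ETO2-GLIS2 lists. AML1-ETO peaks also covered the HDAC3 start, but their summits lay at −1359 and −1216 bp at 12 and 48 h. RUNX1T1 had none.

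**Figure D2:**
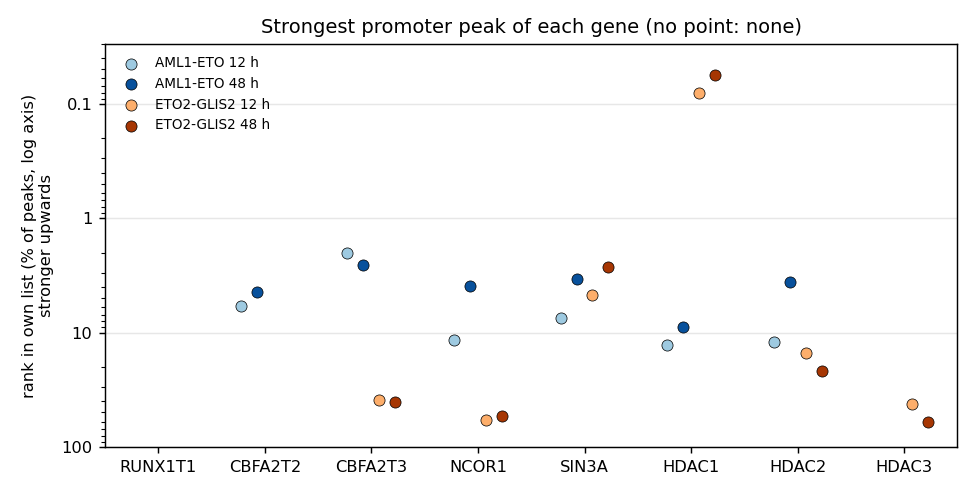
Points give the rank of the strongest promoter peak of each gene within its own list, in percent of the list on a log axis with stronger ranks at the top. The ETO2-GLIS2 points of HDAC1 stand at 0.0812 and 0.0565%, while its AML1-ETO points stand at 12.9 and 8.96%. The ETO2-GLIS2 points of CBFA2T3, at 39.2 and 40.4%, are peaks at an alternative start. Peaks over a start with the summit beyond 1 kb are not drawn, among them ETO2-GLIS2 at CBFA2T3 and AML1-ETO at HDAC3.

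The ETO genes differed from each other as targets. RUNX1T1 (ENSG00000079102, chromosome 8, 92967200 to 93115514, minus strand), the ETO gene itself, had no peak in 3 lists and 1 peak in the AML1-ETO 48 h list. Of all protein-coding genes, 20.9% had at most 1 peak over the 4 lists. The only peak lay in a coding exon and is described with the exon-shaped peaks. No peak was called at its start sites.

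CBFA2T2 (chromosome 20, 32077881 to 32237842, plus strand) encodes MTGR1, the third ETO protein. At its start site AML1-ETO had a peak of 1363 bp at 12 h (19.1-fold, rank 4176) and of 2906 bp at 48 h (23.6-fold, rank 4684). The summits lay at 141 and 80 bp from the start of the main transcript. The smaller AML1-ETO peak at −698 bp at 12 h (3.65-fold) was covered by the wider peak at 48 h. ETO2-GLIS2 had no peak that overlapped these. Its 3 peaks at 12 h and 6 at 48 h all lay downstream of the gene. The strongest of them, with the summit 173707 and 173721 bp from the start at 12 and 48 h, reached 24.1-fold (rank 2344) and 34.9-fold (rank 1589). This region is nearest to the start of C20orf144, 1490 bp away, and AML1-ETO had peaks of 6.68-fold and 11.8-fold there.

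CBFA2T3 (ENSG00000129993, chromosome 16, 88941266 to 89043615, minus strand) encodes ETO2 and had the most peaks of the 8 genes at 48 h, with 42 for AML1-ETO and 18 for ETO2-GLIS2. At 12 h it had 14 AML1-ETO and 7 ETO2-GLIS2 peaks, and HDAC1 had 17 and 7. AML1-ETO peaks covered 11.2% of the window at 12 h and 29.4% at 48 h, and ETO2-GLIS2 peaks covered 5.29 and 9.49%. When all lists were shortened to 28325 peaks as above, AML1-ETO had 6 peaks at 12 h and 10 at 48 h, whereas ETO2-GLIS2 had 7 and 17. The increase with time was thus present for both fusion proteins at equal list length. The order of the fusion proteins was the opposite under this rule, whose cut was stricter in the AML1-ETO lists. Where all lists shared the q threshold of 5 named above, CBFA2T3 held 6 and 18 AML1-ETO peaks and 5 and 10 ETO2-GLIS2 peaks. Joining peaks within 1 kb in the full lists gave 12 and 23 against 6 and 10. In these counts AML1-ETO stayed higher, and the increase with time remained.

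In and before CBFA2T3, 3 regions were occupied in all lists. The widest spanned the start site. The AML1-ETO peak there had 5271 bp, 32.8-fold enrichment and rank 1422 at 12 h, and 7246 bp, 32.1-fold and rank 2716 at 48 h. The ETO2-GLIS2 peak had 4311 bp, 48.5-fold and rank 537 at 12 h, and 4326 bp, 66.1-fold and rank 418 at 48 h. The peaks overlapped, but their summits did not coincide. The AML1-ETO summits lay 77 and 139 bp downstream of the start, and those of ETO2-GLIS2 lay at −1680 and −1678 bp, upstream of it and outside the 1 kb promoter. The gaps between the fusion proteins were 1757 and 1817 bp, whereas between the time points the summit moved by 62 bp for AML1-ETO and 2 bp for ETO2-GLIS2. The upstream ETO2-GLIS2 summit is the site printed above with 2 TGGGGGG matches.

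In the intron region, 40.4 kb downstream of the start, the summits of all 4 lists lay within 14 bp of each other, and those of AML1-ETO at both times and of ETO2-GLIS2 at 48 h were at the same base. AML1-ETO reached 14.8-fold (rank 4521) and 18.8-fold (rank 6584) at 12 and 48 h, and ETO2-GLIS2 reached 35.6-fold (rank 1308) and 31.5-fold (rank 1860). This is the intron site printed above. The other region lay near an alternative start, with summits between 18692 and 19258 bp downstream of the main start. AML1-ETO had 17.8-fold (rank 4279) and 12.3-fold (rank 8404) enrichment there, and ETO2-GLIS2 had 6.46-fold at both times (ranks 11114 and 12154). The remaining AML1-ETO peaks at 48 h were weaker, with ranks from 17518 to 103282.

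**Figure D3:**
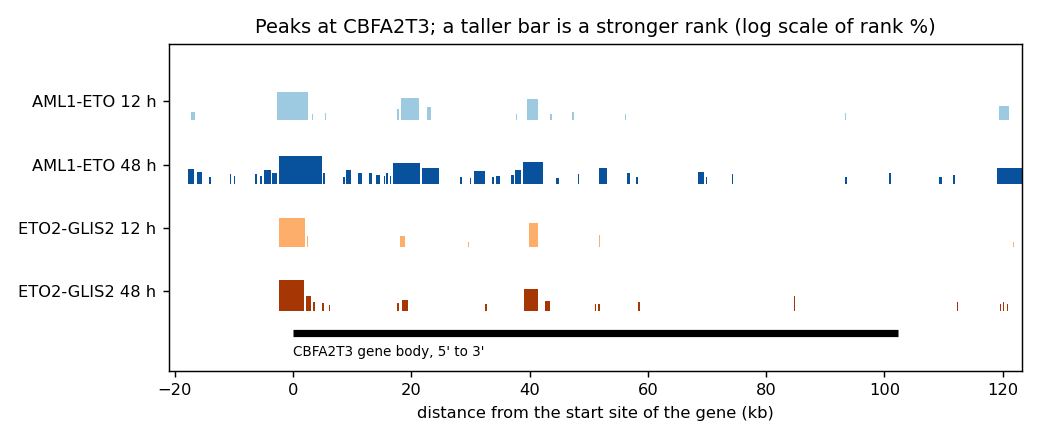
Bars show peaks along CBFA2T3 (horizontal axis, kb from the start site), 1 row per library, with bar height rising with the strength of the rank on a log scale in percent of the list. The start, the alternative start near 19 kb and the intron site near 40 kb carry a bar in all 4 rows, and the AML1-ETO 48 h row holds 42 bars.

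Both scaffold genes had peaks of both fusion proteins at their starts, and those of ETO2-GLIS2 stood at better ranks at SIN3A than at NCOR1. NCOR1 (chromosome 17, 15932379 to 16121499, minus strand) encodes the nuclear receptor corepressor that holds HDAC3. Around its main start AML1-ETO had peaks of 1247 and 1970 bp at 12 h (11.8-fold and 12.2-fold) and a single peak of 4827 bp at 48 h (25.6-fold, rank 4120). The 12 h peak of 1247 bp had its summit at −53 bp from the start of the neighbouring gene PIGL, at −1623 bp from the main start of NCOR1. ETO2-GLIS2 peaks there stood lower in their own lists. It had 1 peak at 12 h (4.75-fold, rank 16429) and 3 at 48 h (5.60, 5.17 and 4.31-fold, ranks 14504, 16294 and 21677), of which the strongest lay at −80 bp from the PIGL start. By the strongest promoter summit, ETO2-GLIS2 stood at 58.0 and 54.1% of its lists and AML1-ETO at 11.7 and 3.90%. Over all protein-coding genes with a promoter peak, the medians were 32.1 and 27.6% for ETO2-GLIS2 and 16.9 and 10.1% for AML1-ETO. All other peaks in the NCOR1 window were small, from 2.73 to 5.87-fold, and the strongest of them was an ETO2-GLIS2 peak of 187 bp beyond the end of the gene at 48 h. The annotation also names NCOR1 pseudogenes, and how the authors treated reads that fit more than 1 place is not given in the sources used here.

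SIN3A (chromosome 15, 75661720 to 75748183, minus strand) had peaks of both fusion proteins at its start region, which holds several start sites. By its strongest promoter peak it was number 633 of 8622 genes at 12 h and 446 of 9221 at 48 h for ETO2-GLIS2. For AML1-ETO it was number 2738 of 10897 and 2479 of 12048. AML1-ETO had 4 separate peaks at 12 h, of 4.25 to 16.7-fold, which were 1 peak of 6490 bp at 48 h (27.6-fold, rank 3615). ETO2-GLIS2 had a peak of 4845 bp at 12 h (31.3-fold, rank 1335), beside a smaller one of 5.43-fold, and of 5897 bp at 48 h (53.4-fold, rank 804). Its summits at the 2 times, at −2671 and −2673 bp from the main start, were 2 bp apart, and the AML1-ETO summit at 48 h was 180 bp away. A region present in all lists at the other end of the gene lay 135 bp from the start of the neighbouring gene MAN2C1. AML1-ETO enrichment there was 12.5-fold and 26.8-fold, and ETO2-GLIS2 enrichment was 8.21-fold and 8.002-fold. At 48 h the AML1-ETO peak there, at rank 3232, had the best AML1-ETO rank of the window.

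The HDAC1 promoter was among the strongest sites of ETO2-GLIS2 and of moderate rank for AML1-ETO. HDAC1 (ENSG00000116478, chromosome 1, 32757684 to 32799236, plus strand) encodes a class I deacetylase of the SIN3 and NuRD complexes. Its promoter carried an ETO2-GLIS2 peak of 2703 bp with 135-fold enrichment and rank 23 of 28325 at 12 h. At 48 h the peak had 3567 bp, 204-fold enrichment and rank 17 of 30096. AML1-ETO had a peak of 1452 bp at 12 h (11.0-fold, rank 9123 of 70833) and of 1954 bp at 48 h (14.3-fold, rank 9482 of 105769). The overlapping peaks therefore stood near the top of the ETO2-GLIS2 lists at both times and in the strongest 12.9 and 8.96% of the AML1-ETO lists. Ordered by their strongest promoter peak, HDAC1 was number 7 of 8622 genes with an ETO2-GLIS2 promoter peak at 12 h and number 6 of 9221 at 48 h. For AML1-ETO it was number 4327 of 10897 and number 5511 of 12048. Fold enrichment depends on depth and on the precipitation, so the folds of different lists are set side by side and not compared as amounts of protein.

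The HDAC1 summits also differed in place. The ETO2-GLIS2 summits lay upstream of the start, at −124 and −151 bp, and the AML1-ETO summit lay at 564 bp at both times. The gaps were 688 and 715 bp. The ETO2-GLIS2 window printed above spans its summit at 48 h and held neither TGGGGGG nor a Runt match. Beyond the end of the gene was a group of peaks in the 20 kb that belong to the window. The strongest ETO2-GLIS2 peak there reached 152-fold at 12 h (rank 22) and 122-fold at 48 h (rank 96), with summits 45435 and 45424 bp from the HDAC1 start. These summits are nearest to the start of MARCKSL1, which lies 44.2 kb from that of HDAC1, and stand at −1285 and −1274 bp from it. AML1-ETO reached 24.9-fold and 19.3-fold in the same region, and its strongest peak of the window at 48 h (40.1-fold, rank 1628) lay 59683 bp from the HDAC1 start. Of the 17 and 15 AML1-ETO peaks in the HDAC1 window, only 1 at each time had the summit within 1 kb of the main start.

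**Figure D4:**
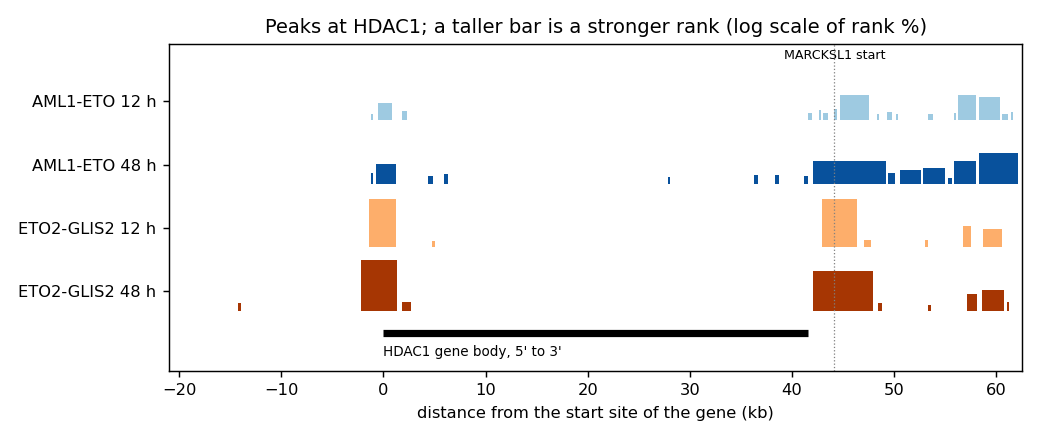
Bars show peaks along HDAC1 (horizontal axis, kb from the start site), 1 row per library, with taller bars for stronger ranks on a log scale in percent of the list. The ETO2-GLIS2 bars at the start (ranks 23 and 17) are taller than the AML1-ETO bars (ranks 9123 and 9482), and a dotted line marks the start of MARCKSL1 at 44.2 kb.

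HDAC2 (chromosome 6, 114254192 to 114332472, minus strand), the close relative of HDAC1, had few peaks, most of them at the start. AML1-ETO had a peak of 1744 bp at 12 h (11.5-fold, rank 8487) and of 2505 bp at 48 h (26.6-fold, rank 3847). ETO2-GLIS2 had a pair of promoter peaks at 12 h (15.3-fold, rank 4287, and 12.9-fold, rank 5243) and 1 of 1772 bp at 48 h (10.3-fold, rank 6567). In percent of the list, AML1-ETO went from 12.0 to 3.64 between 12 and 48 h and ETO2-GLIS2 from 15.1 to 21.8. The medians over all genes with a promoter peak went from 16.9 to 10.1 for AML1-ETO and from 32.1 to 27.6 for ETO2-GLIS2. A change between single libraries has no replicate check.

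HDAC3 (chromosome 5, 141000443 to 141016416, minus strand), the catalytic partner of NCOR1, has close neighbours. A region over its start was present in all lists, but the strongest summits lay at −1359 (AML1-ETO) and −1360 bp (ETO2-GLIS2) at 12 h and at −1216 and −1142 bp at 48 h. These are 1 and 74 bp apart and lie inside the neighbouring gene RELL2, whose start is next to that of HDAC3. AML1-ETO had 9.91-fold (rank 10172) and 15.1-fold (rank 8815) enrichment, and ETO2-GLIS2 had 11.2-fold (rank 6113) and 7.76-fold (rank 9745). Within 1 kb of the HDAC3 starts ETO2-GLIS2 had only weak summits, of 6.10-fold at 12 h and of 4.62 and 3.88-fold at 48 h. The strongest peaks of the window lay downstream of the gene at the start of DIAPH1, where AML1-ETO reached 23.1 and 37.6-fold and ETO2-GLIS2 18.99 and 20.3-fold at 12 and 48 h.

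Peaks of the 8 genes were then compared across lists. At each time 7 of the 8 genes, all but RUNX1T1, had a peak that overlapped the other fusion protein by at least 1 bp, compared with 59.4% of protein-coding genes at 12 h and 62.8% at 48 h. Of the 58 peaks that AML1-ETO had at 12 h, 21 were shared with ETO2-GLIS2, which is 36.2% (95% Clopper-Pearson interval 24.0 to 49.9), and of the 30 of ETO2-GLIS2, 21 were shared with AML1-ETO, 70.0% (50.6 to 85.3). At 48 h the shares were 21.2% (13.6 to 30.6) of 99 and 71.7% (56.5 to 84.0) of 46. The whole lists gave 26.2 and 74.5% at 12 h and 17.8 and 83.4% at 48 h, each of them within the interval of the genes. These intervals cover counting error only, since neighbouring peaks are not independent. Between the times, 81.0% (68.6 to 90.1) of AML1-ETO peaks at 12 h had a counterpart at 48 h, and 32.3% (23.3 to 42.5) in the other direction. For ETO2-GLIS2 the shares were 76.7% (57.7 to 90.1) and 43.5% (28.9 to 58.9). Over the whole lists AML1-ETO gave 73.9 and 36.8%, and ETO2-GLIS2 gave 60.6 and 54.6%, again within the intervals.

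Joined over the 4 lists, the peaks formed 123 regions, of which 18 were present in all 4 lists, 2 in 3, 14 in 2 and 89 in 1. The AML1-ETO 48 h list alone held 64 of the 89 single-list regions. Both AML1-ETO lists and no other held 11 regions, and both ETO2-GLIS2 lists and no other held 0. Regions were joined only at the 8 genes, so no share over all regions stands beside these counts. The AML1-ETO 48 h list is also the longest, with 105769 of 235023 peaks, and the part of list length was not tested. Of the 18 regions in all lists, 7 contained a promoter summit of one of the 8 genes. In these 18 regions, the median distance between the strongest summits of the fusion proteins was 390.5 bp at 12 h and 200 bp at 48 h. The median distance between 12 and 48 h was 22 bp for ETO2-GLIS2 and 116.5 bp for AML1-ETO.

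Some peaks had the outline of an exon. A peak was called exon-shaped when its summit lay in a coding exon and each of its edges was within 200 bp of the edge of the exon. RUNX1T1 and CBFA2T3 had 1 such peak each, and both were at 48 h. Over all 276629 annotated coding exon outlines, 0.488% had one in the AML1-ETO 48 h list and 0.285% in the ETO2-GLIS2 48 h list, and 0.465 and 0.222% in the 12 h lists. In RUNX1T1 the AML1-ETO peak ran from 93026820 to 93027023 on chromosome 8, inside exon 4 of the main transcript (93026807 to 93027048), with edges 13 and 25 bp inside the edges of the exon. It had 4.47-fold enrichment and rank 30930. In CBFA2T3 the ETO2-GLIS2 peak ran from 88958650 to 88958898 around exon 4 (88958652 to 88958893), 2 and 5 bp beyond its edges, with 11.6-fold enrichment and rank 6332. In the sequence printed above, the exon is preceded by 5 and followed by 2 bases of intron.

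The RUNX1T1 and CBFA2T3 exons are counterparts. Both have 242 bp, and 180 of the 242 bases are identical without gaps (74.4%). Each peak was found in the list of the fusion protein whose construct contains part of that gene, and in neither the other fusion protein nor the 12 h list of the same one. A limit of 25 bp on both edges was added after the data were seen. It equals the larger edge difference of the RUNX1T1 peak, so that both peaks pass it was known beforehand. At this limit, 0.0137 and 0.00868% of coding exons had such a peak in the AML1-ETO and ETO2-GLIS2 48 h lists (0.0141 and 0.00434% at 12 h). These shares do not measure how unusual the RUNX1T1 and CBFA2T3 peaks are. Of 12 coding exons in the main transcript of each gene, 1 held a summit, in RUNX1T1 only in the AML1-ETO 48 h list and in CBFA2T3 only in the ETO2-GLIS2 48 h list.

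The partner genes of the fusions were examined in the same way. RUNX1, which gives the Runt domain, had AML1-ETO peaks over exon 5 (157 bp) at 12 h (4.86-fold, 178 bp wide) and at 48 h (7.03-fold, 191 bp wide), with edges between 7 and 20 bp beyond those of the exon at one end and 14 bp at the other. Exon 6 had wider AML1-ETO peaks at both times (4.56 and 5.10-fold), and GLIS2 had an ETO2-GLIS2 peak in exon 7 at 48 h (4.74-fold). Summits in RUNX1 exons were not limited to the fusion protein that contains RUNX1. ETO2-GLIS2 had a summit in 1 of 8 RUNX1 coding exons at 12 h and in 0 at 48 h, and its peaks touched 3 of them at both times, while AML1-ETO peaks had a summit in 2 and touched 5 at both times. None of the exon-shaped peaks overlapped a peak of the other fusion protein at the same time. The constructs carry exons of these genes without introns, and whether reads of the construct gave these peaks was not tested.

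**Figure D5:**
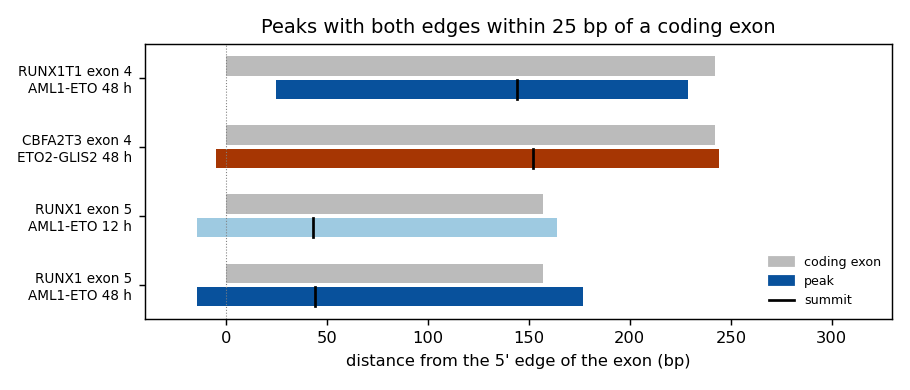
Grey bars are coding exons and coloured bars the peaks over them, drawn in bp from the 5′ edge of the exon, with a black line at each summit. The RUNX1T1 and CBFA2T3 exons have 242 bp and the RUNX1 exon 157 bp, and each peak begins and ends within 25 bp of its exon.

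Other genes of the corepressor complexes were counted for comparison. Of 27 such genes, 21 had an AML1-ETO promoter peak at 12 h and 23 at 48 h, and 22 and 21 had an ETO2-GLIS2 promoter peak. The shares over all protein-coding genes were 54 and 59.8% for AML1-ETO, and 42.8 and 45.7% in the case of ETO2-GLIS2, as above. All 6 genes of the CoREST and NuRD complexes had one in every list, as did 35.8% of protein-coding genes. In the SIN3 complex, 6 and 8 of 9 genes had an AML1-ETO and 9 and 7 an ETO2-GLIS2 promoter peak. Among the other 8 deacetylase genes AML1-ETO had 5 at both times, whereas ETO2-GLIS2 had 4. The strongest promoter peaks for AML1-ETO at 48 h were at RCOR1 (rank 746), TBL1XR1 (rank 1845), ARID4B (rank 2246) and HDAC6 (rank 2416). For ETO2-GLIS2 at 48 h they were at HDAC5 (rank 659), RCOR1 (rank 1060), and RBBP7 and CHD4 (both rank 1101). The HDAC1 promoter, at rank 17, stood above all of these in the ETO2-GLIS2 48 h list.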

How the data were processed

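The 4 ChIP libraries were analysed, and groups were taken from the sample titles. The titles and treatment labels of the 12 h samples give 12 h, whereas their treatment protocol text names 48 h for all samples, and the titles were followed. Per the labels, the authors aligned reads to hg19 with Bowtie2 (2.2.9) and called peaks with MACS2 (2.1.1.20160309) against input. Settings and duplicate removal are not given in the sources used here. The deposited lists give the fold enrichment as a linear ratio over local background, a −log10 p-value and a −log10 q-value, a whole-number score made from the −log10 q, and the summit. The smallest −log10 q was 1.30 to 1.31 in each list. The lists hold no read counts per peak, and the library read numbers that the study's supplement gives were not used here.

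Only chromosomes 1 to 22, X and Y were kept, which left out 60 to 131 lines per list. Ranks follow the −log10 q within a list, and ties share the lowest number. Gene bodies and starts came from GENCODE 44 lifted to GRCh37, the assembly of hg19, and 0 peaks ended past a GRCh37 chromosome. The main start is that of the canonical transcript, and negative distances are upstream. The strongest peak is that of the best rank in percent of its list. Regions were joined where peaks of any list overlapped. Intervals are exact binomial (scipy 1.17.1).

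All 8 genes are named, with their main peaks and their exon-shaped peaks. Some weaker promoter peaks at alternative starts, and the strongest AML1-ETO peak of the HDAC1 window at 12 h, are not given. Other corepressor genes are named by the 4 best promoter ranks at 48 h, and some of their values are not reported here. Peaks in all lists, and neighbouring genes, were named after their values were seen. The genes and lists were chosen with earlier results of these data known. Windows that overlapped untranslated exons are not shown. The RUNX1T1 and HDAC3 windows did not overlap any and are not shown either. Counting was checked on simulated data and against bedtools (2.31.1). Alternatives were other thresholds, list lengths, windows, joining of peaks within 1 kb, promoters of 3 kb, protein-coding transcripts, overlap rules and exon limits.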

Additional observations from a re-analysis of the deposited data

How the results depend on the processing

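Of 160 alternative values, 125 kept the range of the main value and 35 moved. Without CBFA2T3, an alternative added after the data were seen, the 48 h lists held 57 (AML1-ETO) and 28 (ETO2-GLIS2) peaks at the other genes. The number of genes with a peak and of those with a promoter peak stayed within 1.5 times the main count under each alternative run for it. With promoters of 3 kb, 7 and 8 genes had an AML1-ETO promoter peak and 6 an ETO2-GLIS2 one at both times. The AML1-ETO count at 48 h includes RUNX1T1 only through its exon-shaped peak, whose summit lay 2687 bp from an alternative start. Both exon-shaped peaks were present with exon limits of 100 and 300 bp, with canonical exons and with a −log10 q of at least 5. The limit of 25 bp equals an edge difference of the RUNX1T1 peak and could not remove it. At rank 30930, the RUNX1T1 peak lies outside the strongest 28325 peaks of its list. Summits within 5 kb of the gene body left 37 AML1-ETO 12 h and 28 ETO2-GLIS2 48 h peaks. Summits in the gene body left 25 and 59 AML1-ETO and 15 and 21 ETO2-GLIS2 peaks at 12 and 48 h, and the AML1-ETO 48 h share with a 12 h counterpart was 22.03%. A −log10 q of at least 5 left 29 and 43 AML1-ETO peaks and 27 ETO2-GLIS2 48 h peaks. The shares that overlapped the other fusion protein were then 62.1 and 41.9% in the AML1-ETO lists and 90.5% in that of ETO2-GLIS2 at 12 h, and the AML1-ETO shares between times were 93.1 and 48.8%. With the same number of strongest peaks, AML1-ETO had 26 and 29 peaks, with 73.1 and 62.1% overlapping ETO2-GLIS2 and 100 and 72.4% found at the other time. Joining peaks within 1 kb left 34 and 54 AML1-ETO and 28 ETO2-GLIS2 48 h peaks. With at least 50% of the peak covered, the AML1-ETO 48 h shares were 10.1% with ETO2-GLIS2 and 21.2% with 12 h. With summits within 200 bp, the shares with the other fusion protein were 13.8 and 11.1% in the AML1-ETO lists, 26.7 and 23.9% in those of ETO2-GLIS2, and those between times were 37.9 and 22.2% (AML1-ETO) and 56.7% (ETO2-GLIS2, 12 h). No paired analysis was possible because each group holds 1 library and no test was made. Peaks were not adjusted for library depth, and its part in a missing peak was not tested.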

Other observations

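Of the deacetylase genes outside the 8 described, HDAC4, HDAC8 and HDAC9 had no promoter peak in any list, and HDAC8 had 1 peak in all. In single lists, 42.8 to 59.8% of protein-coding genes had a promoter peak, and 20.9% had at most 1 peak over the 4 lists. RCOR1, the scaffold of the CoREST complex, had promoter peaks at 1.44 and 0.705% of the AML1-ETO lists and at 5.00 and 3.52% of the ETO2-GLIS2 lists.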
